A study of Mus musculus with 12 samples.

Results

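Genes of the Notch pathway were followed in mouse epidermis: the ligand genes Jag1, Jag2 and Dll1, the receptor genes Notch1, Notch2 and Notch3, the modifier gene Lfng, and the target genes Hes1 and Hey1. They were chosen by name, 9 of the 22416 genes in the deposited tables. The values are counts of ribosome footprints, the stretches of mRNA that ribosomes protect from nuclease, in wells that each received 1 sorted cell. A footprint count joins how much of an mRNA is present with how heavily it is translated.

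The study compared female C57BL/6 mice that were young (56 to 60 days) or old (22 to 26 months), and every animal received cycloheximide, which stalls ribosomes, by the tail vein before the epidermal cells of its back skin were freed with trypsin. There were 5 plates of each age. Plates that share an age and a postnatal day were assumed to come from 1 animal, which gave 3 animals per age, named here by that day: P60, P59 and P57 when young, and P758, P722 and P662 when old. A nuclease test plate and a plate of Sca-1-negative cells entered no comparison.

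Notch signalling passes between cells in contact. A ligand of the Jagged or Delta-like kind on one cell binds a Notch receptor on its neighbour, the receptor is cut by ADAM proteases and then by gamma-secretase, and its freed intracellular part joins the DNA-binding protein RBPJ and switches on genes such as those of the Hes and Hey families. In mouse epidermis the pathway is known for promoting the step from the basal layer, marked by the keratins Krt5 and Krt14, to the spinous layer, marked by Krt1 and Krt10.

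Wells were placed on a keratin index, the share of Krt1 and Krt10 among the counts of Krt1, Krt10, Krt5 and Krt14, which runs from 0 in a basal to 1 in a spinous cell. Of 1924 wells on the old and young plates, 1906 had at least 100 counts, and 1413 of these had at least 10 keratin counts and could be placed. The index was 0.25 or less in 932 wells (low), 0.75 or more in 352 (high) and between these in 129 (middle). The other 493 kept wells were not placed. Depth was uneven: P60 held 2384294 counts, P758 896688, P662 70549, P722 12886, P59 12371 and P57 5230. The summed level of 7 basal keratinocyte markers was 72170 to 88581 CPM (counts scaled to a total of 1000000) in low sums and 7535 to 15684 in high sums, and that of 6 spinous markers was 1287 to 2265 and 93505 to 105271. Both lists hold index keratins. Markers of T cells, melanocytes, fibroblasts and endothelial cells summed to at most 61.8 CPM in any low, middle or high sum of P60, P662 and P758, and those of Langerhans cells to at most 328 CPM.

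The genes lie on 6 chromosomes of GRCm38.p6. Notch1 spans 26457902 to 26503822 and Jag1 137081451 to 137116520 on chromosome 2. Hey1 spans 8663359 to 8667038 and Notch2 98013538 to 98150367 on chromosome 3. Lfng spans 140607341 to 140615545 on chromosome 5, Jag2 112907803 to 112929812 on chromosome 12 and Hes1 30065357 to 30067796 on chromosome 16. Dll1 spans 15367354 to 15376932 and Notch3 32120820 to 32166896 on chromosome 17.

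The 250 bases upstream of an annotated start are shown for 4 genes that moved along the index, Lfng and Dll1, whose counts lay in the low wells, and Notch2 and Notch3, which were higher in the high wells. The sequences are RefSeq's, written 5′ to 3′ along the gene. Capitals mark matches on either strand to TGGGAA, the core letters of the RBPJ site, and to CACGTG, a form of the E-box to which Hes and Hey proteins are known to bind.
Lfng (chr5:140607091-140607340, + strand): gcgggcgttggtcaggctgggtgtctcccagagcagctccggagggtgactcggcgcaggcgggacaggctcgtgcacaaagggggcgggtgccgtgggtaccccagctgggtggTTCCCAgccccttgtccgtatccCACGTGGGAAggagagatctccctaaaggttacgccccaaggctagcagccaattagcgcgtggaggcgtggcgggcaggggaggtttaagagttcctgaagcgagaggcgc
Dll1 (chr17:15376933-15377182, - strand): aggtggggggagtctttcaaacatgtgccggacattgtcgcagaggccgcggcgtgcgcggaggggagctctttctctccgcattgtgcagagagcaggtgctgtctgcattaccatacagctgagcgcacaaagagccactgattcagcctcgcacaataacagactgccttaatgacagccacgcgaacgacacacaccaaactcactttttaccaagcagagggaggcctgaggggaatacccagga
Notch2 (chr3:98013288-98013537, + strand): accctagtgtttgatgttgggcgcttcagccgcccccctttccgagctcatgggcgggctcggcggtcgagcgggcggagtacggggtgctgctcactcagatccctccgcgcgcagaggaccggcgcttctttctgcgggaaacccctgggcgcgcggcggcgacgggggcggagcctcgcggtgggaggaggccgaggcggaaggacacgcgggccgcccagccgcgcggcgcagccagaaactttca
Notch3 (chr17:32166891-32167140, - strand): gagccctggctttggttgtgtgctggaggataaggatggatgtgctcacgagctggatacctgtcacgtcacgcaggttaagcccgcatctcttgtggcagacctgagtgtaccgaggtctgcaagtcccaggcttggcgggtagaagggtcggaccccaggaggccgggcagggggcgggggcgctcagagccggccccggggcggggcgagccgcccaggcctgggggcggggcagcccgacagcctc
The Lfng window held TGGGAA at 2 places, 1 of them as the longer GTGGGAA, which overlaps the single CACGTG. The other 3 windows held none of these letters, nor did a second window of Dll1, from another start, or those of Jag1, Jag2 and Notch1. The second Dll1 window and the Jag2 window lie inside the annotated span of their gene and are not printed. Among 32851 windows of the same length, 21.6% held TGGGAA, 5.42% GTGGGAA and 6.02% CACGTG. A match describes letters in a window and is not a measured site, and a window without a match says nothing of the factor.

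Along the index the ligand Jag2, the ligand Dll1 and the modifier Lfng had nearly all their footprints in low wells, while Notch2, Notch3 and Hes1 were higher in high wells. Notch1, Jag1 and Hey1 did not pass the test. Counts were summed per animal and bin in the 3 animals with at least 5 wells in every bin (P60 young, P662 and P758 old), and high and low sums were compared with edgeR's quasi-likelihood test with the animal as a block. The test covered 5055 genes and 8 of the 9, since Lfng had no count in P662. It called 5 of the 8, 3 higher and 2 lower in the high sums. Of all genes tested 27.4% were called, 13.6% as higher and 13.8% as lower. The median log2 difference was -0.19 over the 8 and 0.0037 over all genes tested. Because sums join cells, fewer cells with a gene's footprints and fewer footprints per cell cannot be told apart in them. The p-values measure the spread between these sums, with a variance pooled over genes. How many of all genes tested had high and low sums that did not overlap was not counted.

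**Figure D1:**
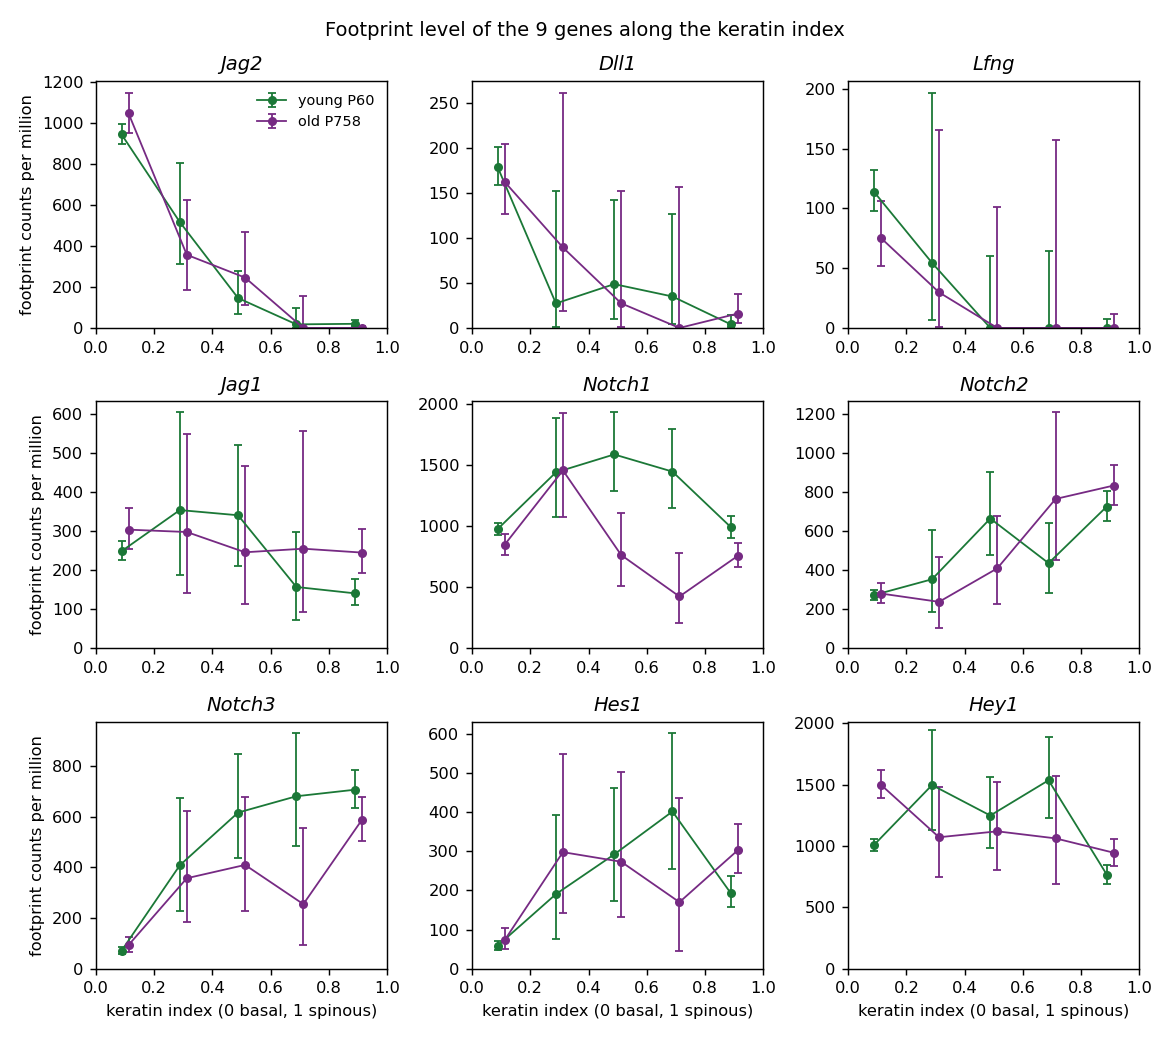
Footprint level of each gene in CPM (vertical axes, linear, each from 0) in 5 equal steps of the keratin index (horizontal axes, points at the middle of the step, offset slightly) for young P60 (green) and old P758 (purple), the 2 deepest animals. Bars are exact 95% Poisson intervals. Jag2 falls from 946 to 20.1 CPM in P60 and from 1049 CPM to 0 in P758, and Notch3 rises from 71.3 to 707 and from 93.7 to 586 CPM.

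Jag2 encodes a ligand carried on the cell surface. Its level was 939 CPM in the low sum of P60 (1532 counts), 1269 in P662 (11 counts) and 1034 in P758 (464 counts). In the high sums it was 19.4 CPM (10 counts), 30.9 CPM (1 count) and 0. High and low sums did not overlap. The fitted log2 difference was -6.12 ± 0.389 (SE, n = 3 animals, edgeR adjusted p = 7.46e-53). The ratio of low to high was 48.3 in P60, and in P758, with 3 counts as the floor for the high sum, low was at least 113-fold higher. Each of the 7 plates of these animals showed the direction, with 803 to 1456 CPM in low and 0 to 76.3 CPM in high wells. The middle sums held 184 CPM in P60, 0 in P662 and 236 CPM in P758, and the log2 difference of middle from low was -2.37 ± 0.328 (edgeR adjusted p = 1.57e-10).

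In 5 equal steps of the index Jag2 stood lower in each of the first 4 steps than in the one before. In P60 it stood at 946, 517, 146, 17.5 and 20.1 CPM, and in P758 at 1049, 357, 246, 0 and 0 CPM. The 3 steps between the ends hold 13 to 30 wells each, and their intervals are wide. With every well thinned to 500 counts, 39.3% of 542 low wells of P60 had a Jag2 count (Clopper-Pearson 95% interval 35.2 to 43.6), against 7.14% of 56 middle and 1.53% of 131 high wells. Thinning left out 35, 10 and 15 shallower wells of these bins, and without it the shares were 75.2%, 13.6% and 4.79%. Among 15 wells of P60 marked by T cell genes, a cell type that should lack the ligand, 2 had a Jag2 count after thinning (13.3%, interval 1.66 to 40.5). In P758 none of 6 such wells and none of 124 high wells had one. With so few wells, the reference cannot separate a high or middle share from background.

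Dll1 encodes a Delta-like ligand. It held 177 CPM in the low sum of P60 (288 counts), 115 in P662 (1 count) and 163 in P758 (73 counts). The high sums held 2 counts in P60, none in P662 and 5 in P758, or 3.89, 0 and 15.2 CPM. The sums did not overlap, and the log2 difference was -4.19 ± 0.414 (edgeR adjusted p = 2.21e-22). In P662 the exact Poisson 95% interval was 2.92 to 643 CPM in low, and the high sum allows up to 114, so that animal alone does not separate the bins. In P758 low was 10.7-fold higher than high. Of the 7 plates 6 showed the direction, and the seventh had no Dll1 count in either bin. Middle sums held 50.3, 0 and 29.5 CPM, a log2 difference from low of -2.06 ± 0.480 (edgeR adjusted p = 0.000737), which DESeq2 gave an adjusted p of 0.0976.

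Lfng encodes Lunatic fringe, a glycosyltransferase that changes which ligands a Notch receptor answers to. It had 185 counts in the low sum of P60 (113 CPM), 33 in that of P758 (73.6 CPM) and none in P662. The middle sums of P60 and P758 held 1 count each, and no high sum held any. Low was at least 19.4-fold higher than high in P60 and at least 8.07-fold in P758, with a floor of 3 counts in the high sum. All 5 plates of these 2 animals had Lfng counts in low wells and none in high wells. The upstream window of Lfng printed above is the one with the matched letters.

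Jag1, the third ligand gene, had counts in every bin of these animals. Low sums held 249 CPM in P60, 231 in P662 and 301 in P758, middle sums 302, 545 and 295, and high sums 140, 185 and 243. The high value was the lower one in each of the 3 animals, and yet the ranges of low and high sums overlapped. The log2 difference of high from low was -0.40 ± 0.247 (edgeR adjusted p = 0.243) and that of middle from low 0.13 ± 0.303 (edgeR adjusted p = 0.918). Scaled to total counts without TMM factors, which moved the median of all genes from 0.0037 to -0.16, Jag1 was called lower (log2 -0.57, edgeR adjusted p = 0.0336).

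Notch3, a receptor gene, showed the widest rise among the 8 tested. It held 74.8 CPM in the low sum of P60 (122 counts), 115 in P662 (1 count) and 103 in P758 (46 counts). High sums held 706, 340 and 574 CPM. The sums did not overlap, and the log2 difference was 3.05 ± 0.276 (edgeR adjusted p = 1.53e-26), with high 9.44-fold above low in P60 and 5.60-fold in P758. In P662 the 1 low count allows up to 643 CPM (exact Poisson 95% bound), so that animal alone does not separate the bins. All 7 plates showed the direction, from 0 to 162 CPM in low to 259 to 761 CPM in high wells. The middle sums, at 612, 545 and 340 CPM, were above low by 2.49 ± 0.326 on the log2 scale (edgeR adjusted p = 1.04e-11).

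By steps, Notch3 had left its low level by the second one, between 0.2 and 0.4. It stood at 71.3, 408, 617, 681 and 707 CPM in P60 and at 93.7, 357, 410, 255 and 586 CPM in P758. In the same second step Jag2 was still at 517 and 357 CPM. Thinned wells with a Notch3 count made up 2.58% of low, 32.1% of middle and 38.2% of high wells in P60, and 4.71%, 23.7% and 29.8% in P758. None of the 15 and 6 T cell-marked wells had one after thinning, which allows a share of up to 21.8% and 45.9%. Wells with a count of both Jag2 and Notch3, before thinning, numbered 31 of 577 low, 6 of 66 middle and 5 of 146 high wells in P60 and 15 of 307, 3 of 47 and 0 of 150 in P758. After thinning they numbered 2 of 542, 2 of 56 and 1 of 131 in P60 and 6 of 276, 0 of 38 and 0 of 124 in P758. The number of such wells that the 2 single shares would give was not computed, so these counts do not show joint presence.

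Notch2, also a receptor gene, held 274 CPM in the low sum of P60, 115 in P662 (1 count) and 274 in P758. High sums held 718, 618 and 836 CPM and did not overlap with the low ones. In P662 the 1 low count allows up to 643 CPM (exact Poisson 95% bound), so that animal alone does not separate the bins. The log2 difference was 1.69 ± 0.253 (edgeR adjusted p = 3.88e-10), and high was 2.62-fold above low in P60 and 3.05-fold in P758. All 7 plates showed the direction. Middle sums lay between low and high in each animal, at 537, 545 and 414 CPM, and their log2 difference from low was 0.79 ± 0.303 (edgeR adjusted p = 0.109). It was called with total counts (edgeR adjusted p = 0.0217), with at least 500 counts per well (0.0326), without wells of other cell types (0.0249) and without P662 (0.0483).

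Notch1, the receptor gene whose loss in mouse skin is known to cause thickened epidermis, had no difference between the ends of the index that passed the test. Low sums held 987, 1038 and 867 CPM in P60, P662 and P758, and high sums 1005, 525 and 736 CPM. The ranges overlapped, with high above low in P60 and below it in both old animals. The log2 difference was 0.0052 ± 0.257 (edgeR adjusted p = 0.992), and its sign changed with the processing. Middle sums were above low in each animal, at 1501, 1908 and 974.7 CPM, but the difference did not pass the test (log2 0.36 ± 0.278, edgeR adjusted p = 0.612).

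Hes1 encodes a repressor of transcription and is the best known direct Notch target in many tissues. It held 58.2 CPM in the low sum of P60 (95 counts), 0 in P662 and 75.8 in P758 (34 counts). High sums held 200.3 (103 counts), 124 (4 counts) and 298 CPM (98 counts), above the low ones. In P662 the 4 counts stand against 0 of 8670, which allows up to 425 CPM (exact Poisson 95% bound), so that animal alone does not separate the bins. The log2 difference was 2.04 ± 0.270 (edgeR adjusted p = 7.57e-13), high being 3.44-fold above low in P60 and 3.93-fold in P758. All 5 plates of these 2 animals showed the direction. Middle sums held 344, 0 and 281 CPM, 2.24 ± 0.344 above low on the log2 scale (edgeR adjusted p = 1.49e-08). In the second step Hes1 was at 191 CPM in P60 and 298 in P758, from 58.9 and 73.1 in the first.

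**Figure D2:**
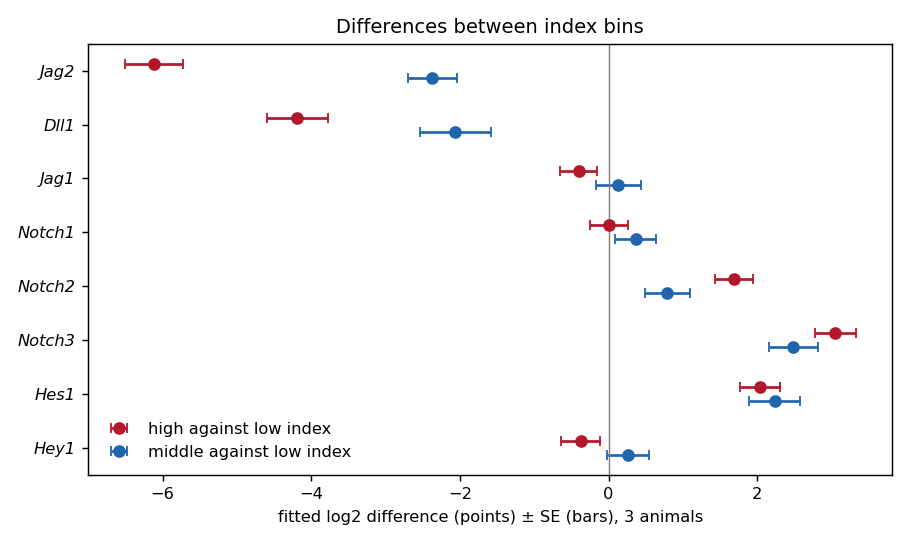
Fitted log2 differences (points) with their SE (bars) of high (red) and middle (blue) from low index sums for the 8 genes tested, n = 3 animals. Jag2 (-6.12) and Dll1 (-4.19) lie left of 0 and Notch2 (1.69), Notch3 (3.05) and Hes1 (2.04) right of it in the high sums, while Jag1 (-0.40), Hey1 (-0.38) and Notch1 (0.0052) lie nearer to 0.

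Leaving an animal out changed how many of these calls stood. Without P758, which leaves P60 and the shallow P662, 3 of the 8 were called, and 535 of all 4278 genes tested. The adjusted p of Notch2 was then 0.0506 and that of Hes1 0.0711 (edgeR). For middle against low, 4 of the 8 were called in all 3 animals, 2 higher and 2 lower. Of all genes tested 6.03% were called (2.47% higher, 3.56% lower). Without P60 the test called 1 of 7 and 45 of all 1846 genes, and without P758 2 of 8 and 100 of all 4278 genes. Without P60 the call that stood was that of Jag2, and the adjusted p was 0.0905 for Notch3 and 0.161 for Hes1 (edgeR). The 3 animals hold 1 young and 2 old, and P662 adds 32383 counts in its high and 8670 in its low sum.

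Hair follicle markers moved with some of these values. The summed level of 5 upper follicle markers in P60 was 1797 CPM in low and 6478 in high sums, in P662 1615 and 92.6, and in P758 1572 and 1377. That of 6 outer bulge markers was lower in the high sum of each animal, at 749 and 200.3 CPM in P60, 2307 and 30.9 in P662 and 1202 and 45.6 in P758. With wells left out that carried markers of the follicle, T cells, Langerhans cells, melanocytes, fibroblasts or endothelium, 5 of 8 were again called. Of all genes tested there, 1193 of 4398 were called. The log2 differences were -7.04 for Jag2, -4.22 for Dll1, 1.67 for Notch2, 3.85 for Notch3 and 2.31 for Hes1. Inside the low bin, wells with at least 5 follicle marker counts were set beside the others after the values had been seen, with no test. In P60 Notch3 stood at 193 CPM in 104 such wells and at 39.7 in the other 473, so that these wells held 72 of its 122 low counts. In P758 it was 196 CPM in 42 wells and 69.5 in 265. Jag1 was 410 against 201 CPM in P60 and 417 against 260 in P758, and Dll1 ran the other way, at 107 against 197 and 51.0 against 202 CPM. Hes1 was 115 against 41.3 CPM in P60, where the marked wells held 43 of its 95 low counts, and 85.1 against 72.5 in P758. Jag2 stood at 874 against 959 and 791 against 1121 CPM. In the high bin, also with no test, Notch3 was lower in marked wells. It stood at 635 CPM in 10 wells against 721 in 136 in P60, and at 158 in 5 against 629 in 145 in P758. Notch2 was higher in marked high wells, at 839 against 692 CPM in P60 and 1343 against 770 in P758. The 5 marked wells of P758 held 51 of its 275 high Notch2 counts. The marked low wells were also deeper, with a median of 2051.5 counts against 1570 in P60 and 2099.5 against 965 in P758. The part of depth in these values was not tested.

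Hey1 encodes a repressor related to Hes1. Its low sums held 1009, 346 and 1494 CPM in P60, P662 and P758, middle sums 1585, 1636 and 1226, and high sums 758.5, 309 and 921. The high value was the lower one in each animal, the ranges overlapped, and the log2 difference of -0.38 ± 0.264 did not pass the test (edgeR adjusted p = 0.330). Scaled to total counts it was called lower (log2 -0.56, edgeR adjusted p = 0.0190). These CPM values follow the depth of the wells, as the counts per well show.

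The count of Hey1 in a well hardly depended on how many counts the well had. With the wells of P60 split by depth into 4 groups of about equal size, with medians of 370, 946, 1840 and 5222.5 counts, the mean Hey1 count per well was 2.46, 2.76, 2.98 and 2.82, while its CPM fell from 6536 in the shallowest to 436 in the deepest. Notch1 went from 0.282 to 6.22 counts per well over the same 4 groups. In P758 Hey1 stood at 1.74, 2.03, 2.20 and 2.18 per well. A Poisson regression of a gene's count on the logarithm of the well's total, with an effect for each plate, gives an exponent of 1 where counts scale with depth and 0 where they do not. It was 0.0673 for Hey1, with 11 of the 3589 genes fitted below it, and 0.746 to 1.23 for the other 8 genes.

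**Figure D3:**
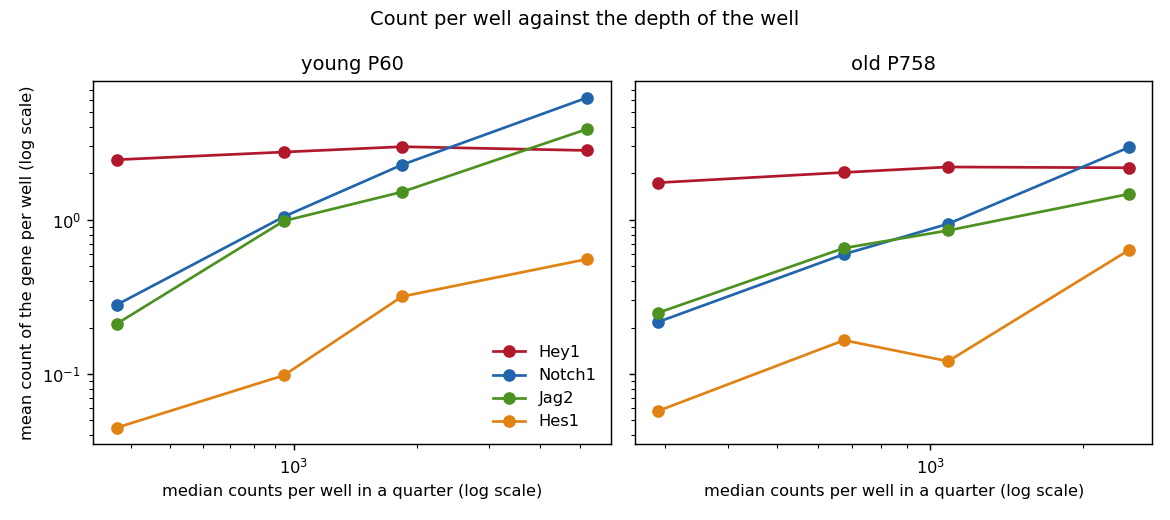
Mean count per well (vertical axis, log scale) of Hey1, Notch1, Jag2 and Hes1 against the median total count of the wells (horizontal axis, log scale) in 4 groups of wells by depth, for young P60 (left) and old P758 (right). Hey1 stays between 1.74 and 2.98 counts per well in both animals while Notch1 climbs from 0.282 to 6.22 in P60 and from 0.218 to 2.96 in P758.

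Hey1 counts were also alike across kinds of well. Wells marked by T cell genes and not placed on the index held 3 Hey1 counts on average in P60 (23 wells) and 1.77 in P758 (13 wells), and the low wells 2.85 and 2.18. All unplaced wells held 2.48 and 1.81. The plates of P60 had 2.93, 2.48 and 2.85 Hey1 counts per well at 956, 864 and 2145 CPM, the plate with the highest CPM being the one with the fewest counts in all (427413, against 1019380 and 937501). The shallow plates held fewer, 0.0556 to 0.352 per well on those of P662, P722, P57 and P59. The source of these counts was not tested, and no CPM difference of Hey1 is read here as a difference in expression.

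Among the other Notch pathway genes, 51 were listed, all are in the tables and 19 passed the filter. In high against low sums 3 were called higher and 3 lower, against 13.6% and 13.8% of all genes tested, so the count is near that background and single calls are given as values only, with a median log2 difference of 0.00088 over the 19 and 0.0037 over all genes tested. The higher ones included the proteases Adam17 (log2 0.92 ± 0.247, edgeR adjusted p = 0.00125) and Adam10 (0.64 ± 0.256, edgeR adjusted p = 0.0442), which cut the receptor outside the cell. Ncstn, a gamma-secretase subunit, was at -0.15 ± 0.253 and did not pass (edgeR adjusted p = 0.747). The lower ones included Fbxw7, which marks cut Notch for breakdown (-2.31 ± 0.400, edgeR adjusted p = 9.69e-08), and the ubiquitin ligase Nedd4 (-0.64 ± 0.254, edgeR adjusted p = 0.0431).

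Adam17 stood at 178 CPM in the low sum of P60, 231 in P662 and 118 in P758, and at 245, 185 and 283 CPM in the high sums, and the ranges overlapped. Fbxw7 stood at 80.9, 0 and 105 CPM in low and 9.72, 30.9 and 24.3 CPM in high sums, and the ranges overlapped through P662, where low held no count. In middle against low none of the 19 was called, where 6.03% of all genes tested were. Of 6 keratinocyte genes known to be tied to Notch, Hes1 among them, 5 were tested and 3 called higher in high sums. Of all genes tested 13.6% were called higher. Hes1 is among these 3 and was already counted above, so this list is not separate from that count. The list as a whole was not tested. Cdkn1a, a cell cycle inhibitor, rose by 2.17 ± 0.263 (edgeR adjusted p = 3.88e-15). Trp63, the basal regulator, was at -0.61 ± 0.266 and did not pass (edgeR adjusted p = 0.0722), nor did Ppp3ca, a calcineurin subunit (-0.63 ± 0.264, edgeR adjusted p = 0.0583). Both were lower in the high sum of each animal, and the ranges did not overlap. That adds no support, since the share of all genes with such ranges was not computed and both were named after their values were seen. The low sum of P662 also held only 8670 counts in all. Trp63 held 1746, 2076 and 1558 CPM in low and 1031, 710 and 973 in high sums of P60, P662 and P758. Ppp3ca held 166, 577 and 183 CPM in low and 101, 30.9 and 115.5 in high sums.

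The genes most like each of the 9 across the index were named by Pearson correlation of log2(CPM + 10) over 10 points, the 5 steps in P60 and P758, among 7116 genes. The points share 2 animals and their plates, so the values only describe. Jag2 was most like Antxr1 (0.99), Slc12a4 and the basal integrin gene Itgb4 (0.97). Lfng was most like Cbr2 (0.98), Mpdz and Dlk2, and Dll1 like Tnfrsf19 (0.94), Flna and Fbxo32. Notch3 was most like Zfp750 (0.97), a regulator of late differentiation, Scel and Camsap3, and Hes1 was most like Notch3 itself (0.91), then Clca2 and Il34. Notch2 was most like Npl (0.93), Prnp and Pla2g4f, Notch1 like Capzb (0.98), Crebbp and Plekhm1, and Jag1 like Erbin (0.87), Mdn1 and Birc6. Hey1 was most like Ppm1n (0.90), itself among the 10 genes with the lowest depth exponent (0.0429), then Myo9b and Ubap2.

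Old and young animals were compared over all kept wells with the animal as replicate, and no difference in the 9 genes passed the test. The filter left 5 of the 9, and none of the 5 was called. Of all genes tested 0.0% were called by edgeR, with 27 genes at an unadjusted p under 0.05. The ranges of old and young animals overlapped in all 9 genes. Over the 15873 genes with any count, 3.48% did not overlap between 3 old and 3 young animals.

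Notch1 stood at 956 CPM in P57, 485 in P59 and 1012 in P60, and at 865, 621 and 825 in P662, P722 and P758. The old animals lay inside the young range, and the log2 difference of old over young was -0.092 ± 0.350 (edgeR adjusted p = 0.990). Notch2 was 1147, 80.8 and 385 CPM in the young and 468, 465.6 and 501 in the old animals (0.27 ± 0.477). The young values rest on 6 counts in P57 and 1 in P59. Notch3 was 191, 0 and 245 CPM in the young and 283, 155 and 306 in the old (0.35 ± 0.373). Jag2 was 0, 243 and 680 CPM in the young and 454, 310 and 565 in the old (-0.067 ± 0.489). Hey1 was 574, 323 and 1133 CPM in the young and 765, 543 and 1426 in the old (0.30 ± 0.482). The edgeR adjusted p was 0.990 for each of these 5 genes.

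**Figure D4:**
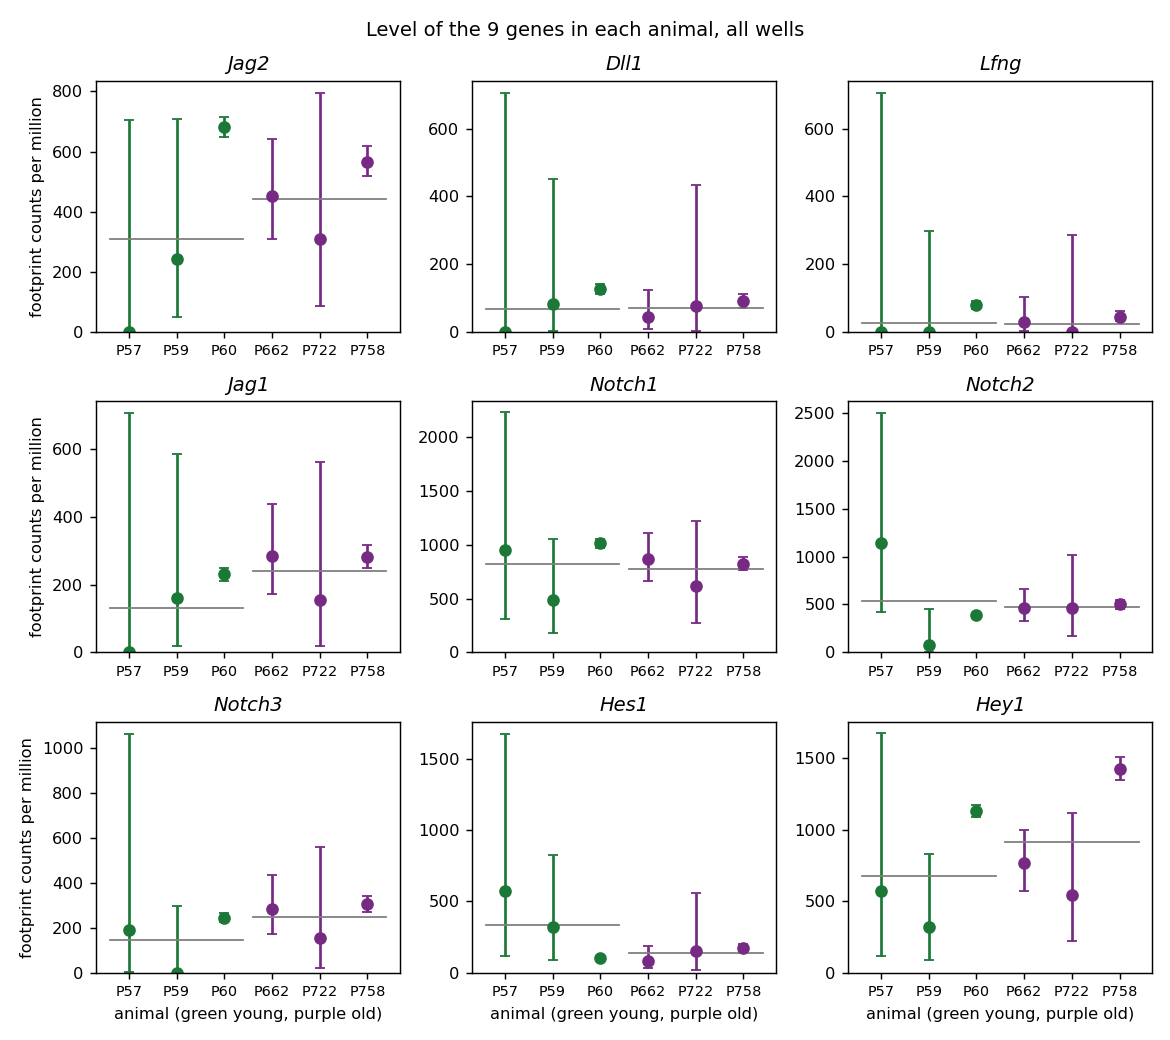
Footprint level of each gene in CPM (vertical axes, linear, each from 0) in the 3 young (green) and 3 old (purple) animals over all kept wells. Points are animals with exact 95% Poisson intervals, and grey lines are the means per age. The intervals of P57, P59 and P722 are wide, and old and young points overlap in all 9 genes.

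The 4 genes that the filter left out are given as levels. Jag1 was 131 ± 118 CPM in the young and 240 ± 73.4 in the old animals (SD, n = 3 each). Dll1 was 68.9 ± 63.8 and 70.2 ± 24.8, Lfng 26.6 ± 46.0 and 24.3 ± 22.6, and Hes1 334 ± 235 and 137 ± 46.0 CPM. The high young mean of Hes1 rests on 3 counts in P57 and 4 in P59, while P60, with 250 counts, stood at 105 CPM against 172 in P758. Lfng had no count in P57, P59 and P722, where a single count is worth 191, 80.8 and 77.6 CPM.

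Animals also differed in their cells. Basal markers summed to 20076 CPM in P57 and 63092 in P722, spinous markers to 22996 in P60 and 55832 in P57, and upper follicle markers to 1646 in P758 and 22039 in P722. The 4 markers of the granular layer summed to 52.8 CPM in P60 and 1148 in P758. In the high sums of P60, P662 and P758 they stood at 105, 0 and 3070 CPM, so the high wells were not alike across animals. The part of all these markers in the age values was not tested. Age was also compared in the high sums alone, with animals of at least 5 high wells. P57 had 3 such wells and P59 had 4, so P60 was the only young animal, against P662, P722 and P758. The difference there was -1.05 for Notch1 on the log2 scale, where it was -0.092 over all wells of 3 animals per age. In the high sums it was -0.26 for Notch2, -0.91 for Notch3 and -0.60 for Hey1, of opposite sign to the values over all wells. None of these was called, and the low sums alone left 85 genes to test and none of the 9.

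Whether the step along the index differed with age was tested by the interaction of age and bin, with P60 against P662 and P758. None of 8 genes was called, where 0.0207% of 4839 genes were (1 gene, with 61 at an unadjusted p under 0.05). The 8 interactions ran from -2.74 ± 1.49 for Jag2 to 1.95 ± 1.52 for Dll1 on the log2 scale, all at an edgeR adjusted p of 1. With 1 young animal and 1 residual degree of freedom these differences are poorly bounded.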

How the data were processed

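The deposited files give whole-number counts of footprint reads per gene and well, made by the authors with fastp, Bowtie2, STAR, UMI-tools and featureCounts on GRCm38.p6, per the submitters' processing notes, with versions and settings not given in the sources used here. The 9 genes, the gene lists and the bins were chosen with earlier results of these data known. Plates carry the same 384 well barcodes, 383 of them on more than 1 plate, so a barcode names a well position and not a cell. No 2 of 20 pairs of plates of one age were identical.

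Wells with at least 100 counts were kept and those with at least 10 keratin counts placed. Counts were summed per animal, or per animal and bin where an animal had at least 5 wells in each bin, and tested with edgeR 4.0.16 in R 4.3.3 (TMM, robust quasi-likelihood fits, Benjamini-Hochberg over all genes tested, threshold 0.05). The index fits took genes with at least 100 counts and a count in 3 animals, without the 4 index keratins, and kept the animal as a block because its bins come from the same animal. The age fit used filterByExpr. Each test was tested on simulated data. CPM are counts over the sum's total, with exact Poisson intervals, and shares of wells have Clopper-Pearson intervals, at 95%. Intervals and floors of 3 counts cover counting error only. Alternatives were DESeq2 1.42.0, limma 3.58.1 on plates, other filters, scalings, bins and minimum counts, wells of other cell types left out, each animal left out, and, chosen after seeing the data, all 6 animals and wells thinned to 500 counts. All 9 genes were named, called genes of the listed Notch pathway genes up to 6 (some called genes of the lists are not reported here), and the 3 genes most like each. Trp63, Ppp3ca and Ncstn were named after their values were seen, and the split by follicle markers and the depth exponent were chosen then too. No doublet caller was run, since each well received 1 sorted cell. Figures were drawn with matplotlib 3.10.9.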

Additional observations from a re-analysis of the deposited data

Results flagged for a closer look

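Notch3 had 0 counts on the only plate of P59, while the other 4 young plates held 191 to 254 CPM. The P59 plate was flagged by the gap to its neighbour over the group's range. It held 12371 counts in all, and 3 counts there would be 243 CPM. Its exact Poisson 95% upper bound was 298 CPM, above the values of the other 4 plates. The 191 CPM, on the plate of P57, is 1 count. In all 18 groups of plates were examined in this way, of which chance singles out about 1 in 20.

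On the nuclease test plate of P758, whose cells were digested with different nucleases and which entered no comparison, Notch3 stood at 492.161 CPM. Its 63 counts gave an exact Poisson 95% interval of 378 to 630 CPM. The highest of the 10 old and young plates, also of P758, stood at 351 CPM. The interval of that plate was 293 to 417 CPM and overlapped with that of the test plate. Wells of this plate differ in their digestion, which was not mapped to wells here.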

How the results depend on the processing

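Across the alternatives, 114 of 125 values of high against low, 99 of 109 of middle against low, 75 of 80 of the age interaction and 46 of 60 of age kept their direction and their side of the threshold. In high against low, the genes called among the 9 were 4 of 7 tested without P60, where 362 of all 1846 genes were called. They were 6 of 9 without P662 (1607 of all 5623) and 3 of 8 without P758 (535 of all 4278). With wells thinned to 500 counts they were 3 of 6 (318 of all 1152). There Dll1 and Hes1 were not tested, and Jag2, Notch2 and Notch3 were called. In middle against low they were 1 of 7 without P60 (45 of all 1846), 6 of 9 without P662 (336 of all 5623) and 2 of 8 without P758 (100 of all 4278). With thinned wells they were 2 of 6 (114 of all 1152). These settings use fewer samples or counts. Notch1 between high and low turned to -0.029 with filterByExpr, -0.19 with total counts, -0.052 with DESeq2, -0.039 with no replicate block and -0.057 in all 6 animals, and ran from -0.30 to 0.072 with each animal left out. Jag1 in middle against low was -0.050 with bin edges of 0.1 and 0.9.

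The interaction turned to 0.034 for Hey1 with no filter and 0.033 with at least 20 keratin counts, 0.016 for Notch3 with bin edges of 0.1 and 0.9, 0.014 for Notch1 with at least 20 keratin counts and -0.33 for Hes1 without wells of other cell types. For age, Notch1 turned to 0.16 with no filter, 0.12 with 100 counts in 4 animals, 0.26 with 20 CPM, and ran from -0.23 to 0.28 with each animal left out. It was -0.41 with at least 500 counts per well and -1.05 in the high bin alone, where P60 was the only young animal. Jag2 turned to 0.18, 0.13 and 0.27 under these 3 filters, 0.17 with DESeq2, 0.091 over plates, and ran from -0.20 to 0.14 with each animal left out. In the high bin alone Notch2, Notch3 and Hey1 were at -0.26, -0.91 and -0.60. None of these values was called, and the cause was not tested.

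Of all genes, 1387 were called in high against low, 766 by DESeq2, 362 without P60, 535 without P758 and 318 with thinned wells. In middle against low these were 305, 134, 45, 100 and 114, and 537 with bin edges of 0.1 and 0.9. The interaction called 0 to 2 genes. Age called 111 with no filter, 72 with 100 counts in 4 animals and 45 with 20 CPM. Of the calls in high against low 49.6% were higher, 37.0% with total counts and 67.4% with at least 20 keratin counts. Without the animal as a block (no replicate block), no call among the 9 genes changed. The labels give no replicate number that pairs an old with a young animal. The interaction could not be fitted with an animal left out or with at least 500 counts per well.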

Other observations

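The Sca-1-negative plate mixes young and old cells on its upper and lower rows, and its barcodes were not mapped to rows here, so its values are given for the plate as a whole. Its 52 wells with at least 100 counts held 17377 counts. Langerhans markers summed to 11164 CPM and upper follicle markers to 15998 CPM there. Notch1 stood at 518 CPM (9 counts), Notch2 at 460 (8 counts), Notch3 at 403 (7 counts), Jag1 and Jag2 at 230.2 each (4 counts), Dll1 at 57.5 (1 count) and Hey1 at 2762 (48 counts). Hes1 and Lfng had none, with an exact Poisson upper bound of 212 CPM. On the nuclease test plate Jag2 stood at 797 CPM, Notch1 at 1328 and Lfng at 23.4 (3 counts) over 230 wells.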
